A study of Mus musculus with 12 samples.

Results

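The ATF4 branch of the integrated stress response was described here through 10 genes, Chac1, Trib3, Atf3, Ddit3, Atf4, Atf5, Asns, Slc7a11, Sesn2 and Fgf21, in mouse neural stem cells with or without JMJD3 knockdown and with or without transforming growth factor beta (TGFb). The genes were taken by name: every gene probe of the arrays that carried 1 of these symbols was used, which gave 11 probes of the 39429 gene probes on the array. Atf4 had 2 probes and each other gene had 1. All 10 genes passed the filter on dim probes and were tested among 24146 genes, Fgf21 only through the knockdown arrays with TGFb, so that its place in a count is no support for one. The cells were dissected from the cerebral cortex of E12.5 embryos. All 12 samples carried a stably transfected shRNA. In the control line it had a random sequence, and in the knockdown line it was the construct labelled sh2 JMJD3. Kdm6b is the gene of JMJD3, a histone demethylase that acts on the Polycomb mark of histone H3. Each line was given vehicle or TGFb at 5 ng/ml for 2.5 h, with 3 samples in each of the 4 groups. Only 1 shRNA against JMJD3 is among these samples, and the labels do not say whether each line was a clone or a mixed population. Nothing in the labels tells whether replicates were separate cultures, and the p-values therefore cover the spread among these samples only, which may be technical.

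When cells run short of amino acids, or when unfolded protein gathers in the endoplasmic reticulum, kinases phosphorylate the initiation factor eIF2. Most translation then slows, while the mRNA of ATF4, a bZIP transcription factor, is translated more, so that ATF4 protein can rise without a matching rise of its mRNA. ATF4 binds C/EBP-ATF response elements together with a C/EBP or another bZIP partner and raises genes for amino acid synthesis and uptake, for glutathione metabolism, for further transcription factors and for feedback regulators. Arrays measure mRNA and not the phosphorylation of eIF2 or the amount of ATF4 protein. In RNA from a whole culture, fewer cells of a type and less RNA per cell cannot be told apart.

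The promoter windows of the genes were examined for the element that ATF4 is known to bind. Windows from RefSeq (GRCm38.p6), which run from 250 bases before to 50 bases after an annotated start, were found for 10 of 10 genes. The core TGATGNAA, searched on both strands, was present in the windows of 6 of the 10 genes, against 4.51% of 27025 genes in the same table. The 6 were Chac1, Trib3, Atf3, Asns, Fgf21 and Slc7a11. The cyclic AMP response element TGACGTCA was found in 0 of the 10 and in 2.03% of all genes, also on both strands. The endoplasmic reticulum stress element, CCAAT and CCACG with any 9 bases between them, was found in 0 of the 10 and in 0.137% of all genes, so that neither overlapped a match of the core. The genes were picked as known genes of the ATF4 branch, so their excess over all genes is no evidence about these arrays. A match is a description of letters, and no binding was measured. The 5 genes whose match lies before the start are shown with 30 bases on each side where the window before the start allowed it, read in the direction of transcription, and capitals mark the match.

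Chac1, chr2:119351019-119351086, + strand: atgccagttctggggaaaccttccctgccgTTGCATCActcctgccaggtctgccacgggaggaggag
Atf3, chr1:191183406-191183473, - strand: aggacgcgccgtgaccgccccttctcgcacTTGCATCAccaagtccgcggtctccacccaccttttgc
Fgf21, chr7:45615592-45615659, - strand: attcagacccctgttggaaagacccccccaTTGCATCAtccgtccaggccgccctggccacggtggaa
Slc7a11, chr3:50443623-50443709, - strand: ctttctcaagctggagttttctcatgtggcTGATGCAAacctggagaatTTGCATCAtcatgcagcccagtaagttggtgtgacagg
Asns, chr6:7693210-7693262, - strand: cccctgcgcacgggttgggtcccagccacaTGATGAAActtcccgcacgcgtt

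The cores of Chac1, Atf3, Fgf21 and Slc7a11 have the same 8 letters, TGATGCAA on the + or - strand of the gene, and Asns has TGATGAAA. The core of Chac1 lay 193 to 186 bases before the start, that of Fgf21 139 to 132 bases before it and that of Atf3 110 to 103 bases before it. Slc7a11 held 2 cores in opposite orientation, at 66 to 59 and at 47 to 40 bases before the start. The core of Asns began 23 bases before the start. The match of Trib3 lay 14 to 21 bases after the start and is not printed. The genes that carry the core did not move together. In the knockdown line Chac1, Trib3 and Atf3 were higher, as was Fgf21 on a dim probe, and Asns was lower. Slc7a11 was lower there with TGFb and did not pass with vehicle.

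**Figure D1:**
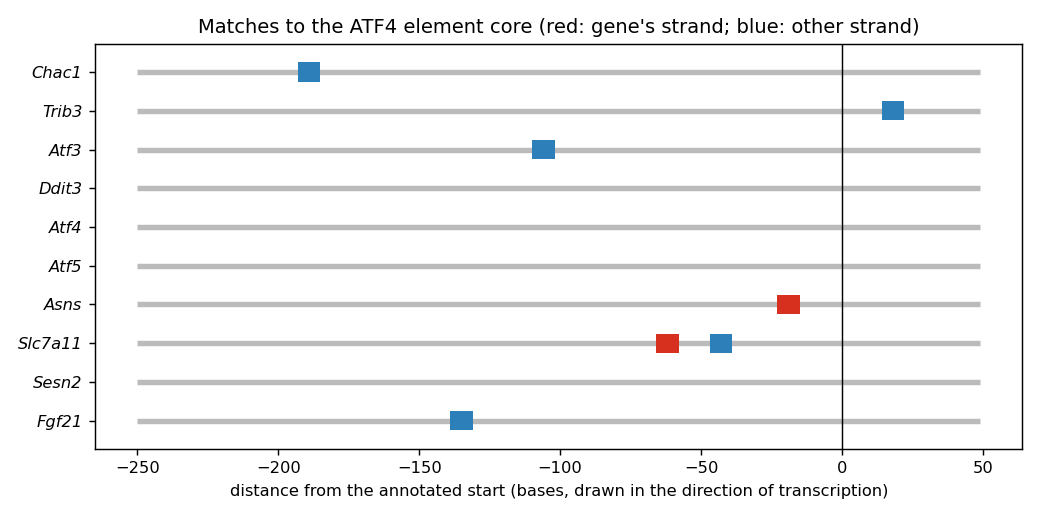
Position of matches to the core TGATGNAA in the promoter window of each of the 10 genes. The horizontal axis is the distance in bases from the annotated start, drawn in the direction of transcription, grey lines are the windows searched, red blocks are matches on the gene's own strand and blue blocks matches on the other strand. A match is seen in 6 windows, 2 of them in Slc7a11, and none in those of Ddit3, Atf4, Atf5 and Sesn2.

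The knockdown itself was seen on the array. Kdm6b was 2.24-fold lower in the knockdown line with vehicle (log2 change -1.16, SE 0.05, adjusted p = 1.06e-07, limma with Benjamini-Hochberg adjustment over all genes) and 2.63-fold lower with TGFb (adjusted p = 2.85e-08), and the arrays of the lines did not overlap. Over the 12 arrays the 75th percentile of signal lay at 3175 to 4462, and 70.2% to 78.4% of probes read well above background, with 0 saturated spots. The number of arrays limits the precision. All 9 neural stem cell markers were well above background on all 12 arrays, and of 5 microglia and 5 endothelium markers 2 and 4 were so on all 12 arrays, with Aif1 and Cdh5 so on none. With vehicle, 4 of the 9 stem cell markers were higher in the knockdown line (Sox2, Slc1a3, Hes5 and Prom1) and 2 lower (Nes and Vim), and the summed level of the list, as signal relative to the 75th percentile, was 245 to 263 in control and 236 to 264 in knockdown cells. With TGFb, 3 were higher and 1 lower, and the summed level was 230 to 254 and 256 to 277. Of 5 oligodendrocyte lineage markers 3 were lower in the knockdown line with vehicle (Pdgfra, Olig2 and Olig1), with a summed level of 40.6 to 42.8 against 45.6 to 49.5. Of the neuron markers 5 were measured, 1 of which was higher (Dcx) and 1 lower (Rbfox3), with sums of 11.2 to 12.1 against 10.4 to 11.1, and Gfap was higher among 4 astrocyte markers. The markers that moved were named after their values were seen. The part of these markers in the results below was not tested.

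Most of the stress genes differed between the knockdown line and the control line. With 1 shRNA against JMJD3, loss of JMJD3 and any other difference between the lines cannot be told apart. With vehicle, 6 of the 10 were higher and 1 was lower at an adjusted p under 0.05, where 27.8% of all genes passed (3020 higher and 3701 lower of 24146). With TGFb, 5 were higher and 2 lower, where 29% of all genes passed (2902 higher and 4096 lower). The median log2 change of the 10 genes was 0.60 with vehicle and 0.41 with TGFb, against -0.02 and -0.01 over all genes tested. Arrays of the lines did not overlap for 8 of the 10 genes with vehicle (6 higher and 2 lower) and for 7 with TGFb, against 41.1% and 38.7% of all genes. The 10 genes were chosen with earlier results of these data known. Their counts and medians beside those of all genes are therefore a description and no test of an excess. The counts include Fgf21, whose control arrays were all below background and have no reliable order. Fgf21 is left out when only genes above background on all 12 arrays are used. Then 5 were higher and 1 lower with vehicle, and 4 higher and 2 lower with TGFb. Under that filter 6685 of 21759 genes passed with vehicle and 6984 with TGFb. The higher genes were Chac1, the feedback gene Trib3 and the transcription factors Atf3 and Ddit3. Sesn2 was higher by a smaller amount, and Fgf21 on a dim probe. The mRNA of Atf4 itself and of Atf5 did not pass in either treatment, and the amino acid synthesis gene Asns was lower. With scaling to the array median the split with vehicle was 6 higher and 0 lower, as Asns no longer passed, and that of all genes was 2217 higher and 2127 lower. In the authors' deposited log2 values the split of the 10 was also 6 and 0, but Asns and Fgf21 (0.22, adjusted p = 0.159) did not pass and Atf5 did. Over all genes the split in those values was 2587 higher and 2579 lower.

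**Figure D2:**
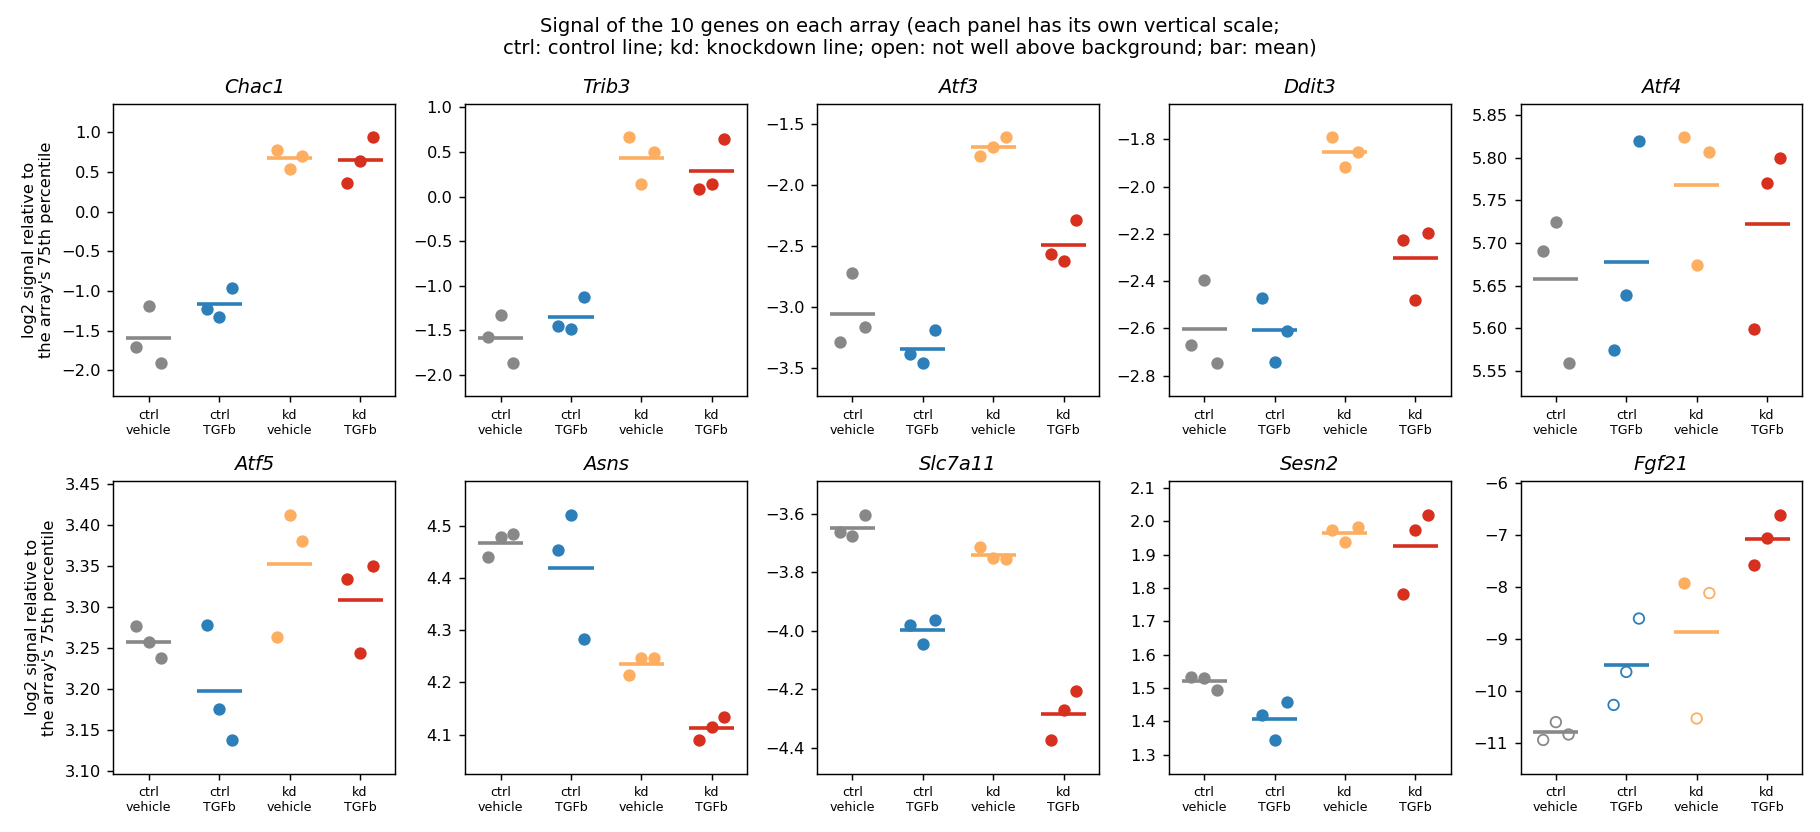
Signal of each gene on each of the 12 arrays, on a log2 scale with the 75th percentile of the array at 0. Each point is an array, the bar is the mean of 3 arrays, an open point is not well above background, ctrl is the control line and kd the JMJD3 knockdown line. In Chac1, Trib3, Atf3 and Sesn2 all 6 knockdown arrays lie above all 6 control arrays. In Asns they lie below.

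Chac1 encodes an enzyme that degrades glutathione. Its probe lies at chr2:119179990-119180049 on the mm9 build. Its levels are given, as for all genes here, as log2 signal relative to the 75th percentile of the array, and a level is not comparable between probes. On the vehicle arrays they were -1.70, -1.19 and -1.90 in control cells and 0.78, 0.53 and 0.71 in knockdown cells. On the TGFb arrays they were -1.22, -1.33 and -0.96 in control cells and 0.36, 0.64 and 0.94 in knockdown cells. Every knockdown array was higher than every control array, and among the controls with vehicle replicate 2 was the highest. Chac1 was 4.82-fold higher with vehicle (log2 change 2.27, SE 0.18, adjusted p = 4.95e-06) and 3.52-fold higher with TGFb (1.82, SE 0.18, adjusted p = 2.77e-05). The rise was seen on each slide that held both lines: 2.48, 1.72 and 2.61 on slides 1, 2 and 3 with vehicle, and 1.69 and 1.75 on slides 3 and 4 with TGFb.

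Trib3 encodes a pseudokinase that binds ATF4 and AKT and acts as a feedback inhibitor of the branch. Its levels with vehicle were -1.58, -1.33 and -1.86 in control cells and 0.66, 0.14 and 0.50 in knockdown cells. Under TGFb they read -1.45, -1.48 and -1.12 in control cells and 0.08, 0.14 and 0.64 in knockdown cells. The lines did not overlap under either treatment. Trib3 was 4.08-fold higher with vehicle (log2 change 2.03, SE 0.18, adjusted p = 1.26e-05) and 3.12-fold higher with TGFb (1.64, SE 0.18, adjusted p = 6.03e-05). Of the 3 slides that held vehicle arrays of both lines, slide 2 gave the smallest difference for Trib3 (1.48), as it did for Chac1.

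Atf3 encodes a bZIP factor that is induced by many stresses and dimerises with other bZIP proteins. Its levels with vehicle were -3.29, -2.72 and -3.17 in control cells and -1.76, -1.69 and -1.61 in knockdown cells. With TGFb they were -3.38, -3.46 and -3.19 in control cells and -2.57, -2.63 and -2.29 in knockdown cells. The lowest knockdown array under either treatment was above the highest control array. Atf3 was 2.58-fold higher with vehicle (log2 change 1.37, SE 0.14, adjusted p = 3.06e-05) and 1.80-fold higher with TGFb (0.85, SE 0.14, adjusted p = 0.000874).

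Ddit3 encodes CHOP, a C/EBP family member that acts downstream of ATF4 in prolonged stress. Its levels with vehicle were -2.67, -2.39 and -2.74 in control cells and -1.79, -1.92 and -1.86 in knockdown cells. With TGFb they were -2.47, -2.74 and -2.61 in control cells and -2.23, -2.48 and -2.20 in knockdown cells. The lines were apart with vehicle, while with TGFb knockdown replicate 2 lay just below control replicate 1. Ddit3 was 1.68-fold higher with vehicle (log2 change 0.75, SE 0.11, adjusted p = 0.000345). With TGFb the log2 change was 0.30 (SE 0.11, adjusted p = 0.0552), which did not pass, and with the slide as a block it was 0.37 and passed (adjusted p = 0.0239). It also passed without knockdown replicate 2 with TGFb (adjusted p = 0.0258), control replicate 1 with TGFb (0.0388) or control replicate 2 with vehicle (0.032).

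Atf4 was read by a bright and a dimmer probe, at chr15:80087902-80087961 and chr15:80086639-80086698 of mm9. On the bright probe, which stands for the gene, levels ran from 5.56 to 5.82 over the 6 control arrays and from 5.60 to 5.82 over the 6 knockdown arrays. The ranges of the lines overlapped almost fully. The log2 change with knockdown was 0.11 with vehicle (95% interval -0.06 to 0.28, adjusted p = 0.372) and 0.04 with TGFb (95% interval -0.13 to 0.22, adjusted p = 0.724). The dimmer probe gave 0.25 with vehicle (SE 0.10, adjusted p = 0.0767 over 29968 probes) and 0.14 with TGFb (adjusted p = 0.332). With the slide as a block the dimmer probe passed with vehicle (adjusted p = 0.0191) and the bright probe did not (adjusted p = 0.132). The probes thus differed in this call. Both read higher with vehicle (0.25 and 0.11), and the difference between the probes was not tested. The mean of both probes also passed with vehicle (log2 change 0.18, adjusted p = 0.044).

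Atf5, a bZIP factor whose mRNA is translated under eIF2 phosphorylation much as that of ATF4, ran from 3.14 to 3.28 over the control arrays and from 3.24 to 3.41 over the knockdown arrays. The ranges overlapped in each treatment. Its log2 change was 0.10 with vehicle (95% interval -0.02 to 0.21, adjusted p = 0.224) and 0.11 with TGFb (adjusted p = 0.139). With the slide as a block the value with TGFb was 0.15 and passed (adjusted p = 0.0418). In the authors' deposited log2 values Atf5 passed with vehicle (0.20, adjusted p = 0.0326). With vehicle the upper ends of the intervals of Atf4 and Atf5 (0.28 and 0.21) lay below the lower ends of those of Trib3 and Chac1 (1.62 and 1.87).

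Asns encodes asparagine synthetase, the enzyme after which the amino acid response element was studied. Its levels with vehicle were 4.44, 4.48 and 4.48 in control cells and 4.21, 4.25 and 4.25 in knockdown cells. With TGFb they were 4.45, 4.52 and 4.28 in control cells and 4.09, 4.12 and 4.13 in knockdown cells. Each knockdown array was below each control array of its treatment. Asns was 1.17-fold lower with vehicle (log2 change -0.23, SE 0.05, adjusted p = 0.0073) and 1.24-fold lower with TGFb (-0.31, SE 0.05, adjusted p = 0.00127). The differences within slides 1, 2 and 3 with vehicle were -0.23, -0.23 and -0.24. With vehicle the call was lost with scaling to the array median (-0.22, adjusted p = 0.107) and in the authors' deposited log2 values (-0.13, adjusted p = 0.107).

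Slc7a11 encodes the light chain of the cystine and glutamate exchanger, which supplies cysteine for glutathione. Its levels with vehicle were -3.66, -3.68 and -3.60 in control cells and -3.71, -3.75 and -3.75 in knockdown cells. Under TGFb they read -3.98, -4.05 and -3.96 in control cells and -4.37, -4.27 and -4.21 in knockdown cells. The 4 groups were apart on this probe. The order from high to low was control with vehicle, knockdown with vehicle, control with TGFb and knockdown with TGFb. The first pair of neighbours in this order did not differ by the test, and the second pair was not tested. The knockdown difference passed with TGFb (1.22-fold lower, log2 change -0.29, SE 0.07, adjusted p = 0.00957) and not with vehicle (-0.09, 95% interval -0.25 to 0.06, adjusted p = 0.415). The value with TGFb did not pass when only the compared groups were fitted (adjusted p = 0.0692).

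Sesn2 encodes a leucine sensor that restrains mTORC1. Its levels with vehicle were 1.53, 1.53 and 1.49 in control cells and 1.98, 1.94 and 1.98 in knockdown cells. Under TGFb they read 1.42, 1.34 and 1.46 in control cells and 1.78, 1.98 and 2.02 in knockdown cells. The lines did not overlap. Sesn2 was 1.36-fold higher with vehicle (log2 change 0.45, SE 0.06, adjusted p = 0.000178) and 1.43-fold higher with TGFb (0.52, SE 0.06, adjusted p = 6.06e-05).

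Fgf21 encodes a secreted hormone of the FGF family that ATF4 raises in liver and muscle under amino acid shortage. Its probe was the dimmest of the genes and was not well above background on any of the 6 control arrays. It was well above background on 1 of 3 knockdown arrays with vehicle and on 3 of 3 with TGFb. The 6 control arrays read -10.94, -10.59 and -10.83 with vehicle and -10.26, -9.63 and -8.60 with TGFb, and the knockdown arrays read -7.92, -10.52 and -8.12 with vehicle and -7.57, -7.06 and -6.61 with TGFb. Values below background have no reliable order, and knockdown replicate 2 with vehicle read much as the controls. With TGFb, the knockdown arrays averaged 2.49-fold above a floor (fit: adjusted p = 0.015, for a probe that passed the filter only through these arrays). The floor was the dimmest reading that still counted as well above background on each control array, or the Fgf21 reading itself where that was higher. Such a floor is not an upper limit for a gene below background, so the size of the difference is not known. With vehicle the knockdown arrays averaged 0.80-fold of such a floor. The call of the fit with vehicle (adjusted p = 0.0444) was lost under 15 of 24 alternatives, among them normexp background correction (adjusted p = 0.566). Under that correction the log2 change with TGFb was 0.33 and also missed the threshold (adjusted p = 0.0555). The value with TGFb missed it as well without control replicate 1 with TGFb (0.0555) or knockdown replicate 3 with TGFb (0.0619).

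**Figure D3:**
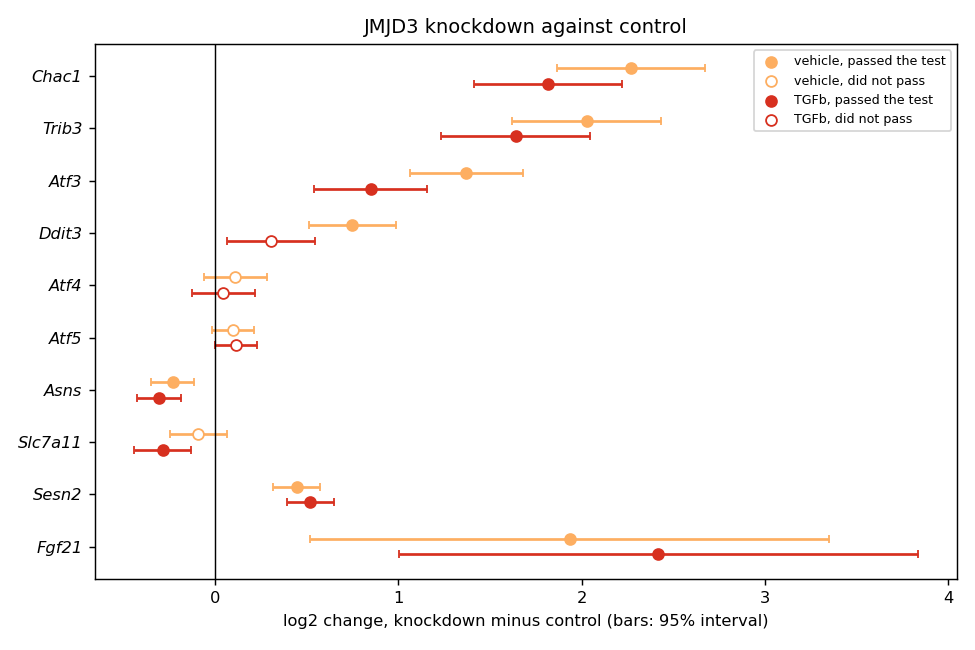
Log2 change of each gene in the JMJD3 knockdown line against the control line, with vehicle (orange) and with TGFb (red). Points are estimates from limma, bars are 95% intervals, filled points passed at an adjusted p under 0.05 and open points did not. Chac1 and Trib3 lie between 1.64 and 2.27, Atf4 and Atf5 between 0.04 and 0.11, and Asns at -0.23 and -0.31.

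The series asks whether JMJD3 is needed for the response to TGFb. In control cells 0 of the 10 genes rose and 1 fell by the limma test, where 10.1% of all genes passed (1310 higher and 1140 lower). In knockdown cells 0 rose and 3 fell, where 9.49% of all genes passed (1144 higher and 1147 lower). At an unadjusted p under 0.05, 1 gene was higher and 1 lower in control cells, and 1 higher and 4 lower in knockdown cells. Over all genes the share at that unadjusted level was counted only for the difference of responses. The shares above are for adjusted p and are no baseline for these unadjusted counts. The comparisons of treatment and of knockdown share arrays, so their values are given side by side and are not independent. Arrays did not overlap between treatments for 3 genes in control cells and 5 in knockdown cells, against 22.1% and 24.1% of all genes. Without Fgf21, whose control arrays have no reliable order, these were 2 and 4. The 10 genes had a median log2 change of -0.03 in the control line and of -0.08 in the knockdown line, against -0.01 and -0.02 over all genes.

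Slc7a11 fell in both lines. It was 1.27-fold lower with TGFb in control cells (log2 change -0.35, SE 0.07, adjusted p = 0.00708) and 1.46-fold lower in knockdown cells (-0.54, SE 0.07, adjusted p = 0.000332). Within slides the changes were -0.30 and -0.44 in control cells and -0.62 in knockdown cells. In control cells the fall did not pass when only the compared groups were fitted (adjusted p = 0.0517).

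Atf3 fell 1.75-fold with TGFb in knockdown cells (log2 change -0.81, SE 0.14, adjusted p = 0.0029), and its change in control cells was -0.29 (SE 0.14, adjusted p = 0.317). Ddit3 fell 1.36-fold in knockdown cells (log2 change -0.45, SE 0.11, adjusted p = 0.0222), against a change of -0.00 in control cells (SE 0.11, adjusted p = 0.997). The call of Ddit3 was lost with the slide as a block (-0.36, adjusted p = 0.16), without knockdown replicate 1 with vehicle (-0.42, adjusted p = 0.0768), without knockdown replicate 3 with vehicle (-0.45, adjusted p = 0.0716) and without knockdown replicate 2 with TGFb (-0.36, adjusted p = 0.0964). Slide 3 was the only slide with both treatments of the knockdown line. The log2 changes there were -0.96 for Atf3 and -0.37 for Ddit3.

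Chac1 and Trib3, which were higher in the knockdown line, did not pass for TGFb in either line. The log2 change of Chac1 was 0.43 in control cells (95% interval 0.02 to 0.83, adjusted p = 0.224) and -0.03 in knockdown cells (95% interval -0.43 to 0.38, adjusted p = 0.956). Without replicate 2 of the control cells with vehicle, the value of Chac1 in control cells was 0.63 and passed (adjusted p = 0.035). For Trib3 the changes were 0.24 and -0.15. Asns changed by -0.05 and -0.12, Sesn2 by -0.11 and -0.04, Atf4 by 0.02 and -0.05, and Atf5 by -0.06 and -0.04, and none of these passed. Fgf21 read 1.29 and 1.77 higher on the log2 scale, which did not pass (adjusted p = 0.329 and 0.138), and in control cells all its arrays were below background. Its value in knockdown cells passed with normexp, where it was smaller (0.47, adjusted p = 0.0239), and with array weights (1.92, adjusted p = 0.0231).

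The difference of the TGFb responses between the lines passed for 0 of the 10 genes with limma at an adjusted p under 0.05, where 0.087% of all genes passed. At an unadjusted p under 0.05 it was seen for 2 genes, where 5.11% of all genes reached that level: Atf3 (response of knockdown minus that of control cells -0.52, 95% interval -0.96 to -0.08, adjusted p = 0.89) and Ddit3 (-0.44, 95% interval -0.78 to -0.11, adjusted p = 0.785). The falls of Atf3 and Ddit3 in the knockdown line were not shown to differ from the response in the control line. For Slc7a11 the difference was -0.19 (95% interval -0.41 to 0.02, adjusted p = 0.964).

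**Figure D4:**
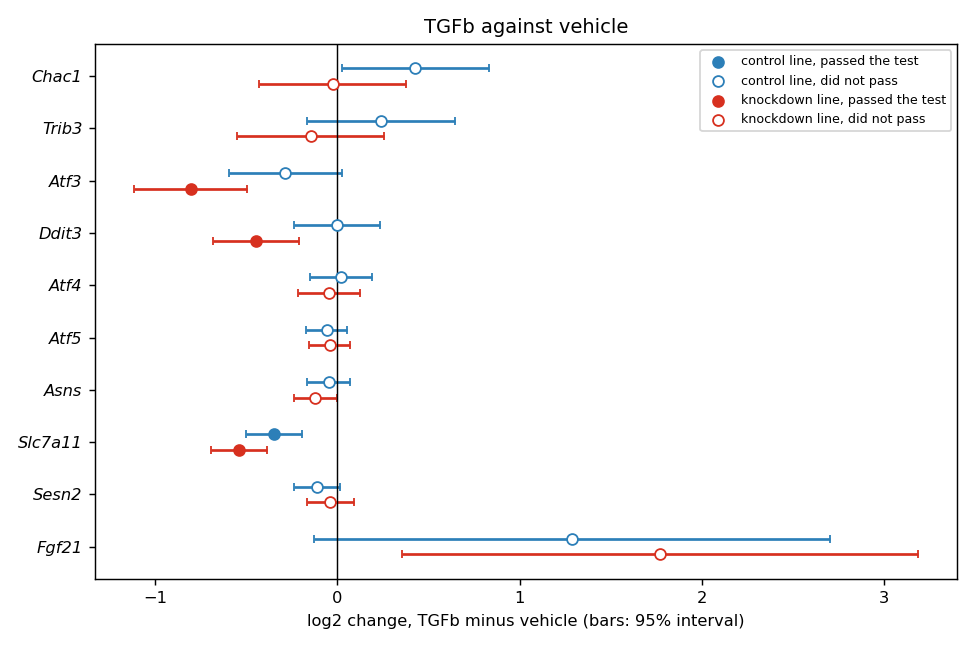
Log2 change of each gene with TGFb against vehicle in the control line (blue) and the knockdown line (red). Points are estimates from limma, bars are 95% intervals, filled points passed at an adjusted p under 0.05 and open points did not. Slc7a11 lies at -0.35 and -0.54, and Atf3 and Ddit3 passed in the knockdown line, at -0.81 and -0.45.

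Over the 12 arrays the genes differed in how closely they followed Chac1. Pearson's r with Chac1, given as a description over arrays that share line, treatment and slide, was 0.99 for Trib3, 0.94 for Sesn2, 0.85 for Atf3, 0.82 for Ddit3, 0.79 for Fgf21, 0.59 for Atf5 and 0.56 for Atf4, and it was -0.42 for Slc7a11 and -0.89 for Asns. Atf3 and Ddit3 were close to each other (0.95). Slc7a11 had values between -0.71 and 0.60 with the other genes. The lines stand apart on most of these genes, so that r over all arrays reflects the distance between lines. Outside the 10 genes, the 5 with the highest r with Chac1 among 15924 genes with their own symbol were Pcdh9 (0.99), Gstt1 (0.99), P2ry12 (0.99), Sec23a (0.99) and Gria1 (0.98). Pcdh9 is a protocadherin, Gstt1 a glutathione transferase, P2ry12 an ADP receptor, Sec23a a coat protein of transport vesicles and Gria1 a glutamate receptor subunit. Their log2 changes with knockdown and vehicle were 1.10, 0.40, 1.04, 0.74 and 1.14. With Asns the 5 were Scamp3 (0.98), Ino80b (0.98), Wrap53 (0.97), Rbm6 (0.97) and Pabpc1 (0.97), whose changes with knockdown and vehicle ran from -0.58 to -0.16.

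Genes upstream of ATF4, genes of amino acid supply and other stress genes were read from 8 lists of pathway genes, all members of which were measured. Their counts stand beside the 27.8% of all genes that passed with vehicle and the 29% with TGFb. The lists, too, were chosen with earlier results of these data known. Of 16 kinases, subunits and phosphatase subunits of the eIF2 step, 2 were higher and 4 lower with knockdown and vehicle, and 1 was higher and 8 lower with TGFb. Eif2ak3, the kinase PERK of the endoplasmic reticulum, was 1.43-fold higher with vehicle (log2 change 0.52, SE 0.05, adjusted p = 3.54e-05) and 1.39-fold higher with TGFb. Eif2b4, a subunit of the exchange factor eIF2B, was 1.20-fold lower with vehicle (-0.26, SE 0.04, adjusted p = 0.000674), Eif2s2, the beta subunit of eIF2, was 1.12-fold lower and Eif2s1, its alpha subunit, 1.11-fold lower. The share of the list that passed with vehicle is near that of all genes. With TGFb the share that passed was larger than that of all genes, and most of the genes that passed were lower. The median of the list was -0.08 with vehicle and -0.16 with TGFb.

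ATF4 is known to raise genes for amino acid supply, but the lists here are of whole families and not of ATF4 targets only. The synthesis enzymes moved both ways, and the transporters and tRNA synthetases that passed were lower. Of 15 amino acid synthesis enzymes 5 were higher and 5 lower with vehicle, and 5 were higher and 5 lower under both treatments. Cbs, which makes cystathionine from homocysteine, was 1.47-fold higher (log2 change 0.56, SE 0.08, adjusted p = 0.00025), Aldh18a1 of proline synthesis 1.25-fold higher and Aldh1l2 of mitochondrial folate metabolism 1.29-fold higher, while Psat1 of serine synthesis was 1.24-fold lower (-0.31, SE 0.05, adjusted p = 0.000601). Of 10 amino acid transporters 0 were higher by limma (2 at an unadjusted p under 0.05) and 1 was lower, namely Slc38a1, a glutamine carrier (1.20-fold, adjusted p = 0.00136). With TGFb 2 were lower, and the second was Slc3a2, the heavy chain partner of Slc7a11 (1.25-fold, adjusted p = 0.0168). Of 16 aminoacyl-tRNA synthetases 0 were higher (0 also at an unadjusted p under 0.05) and 2 lower with vehicle, Hars (1.21-fold, adjusted p = 0.00123) and Tars (1.14-fold, adjusted p = 0.012), and 3 were lower with TGFb. The list medians were 0.06, 0.11 and -0.09 with vehicle, against -0.02 over all genes.

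The other stress genes downstream of ATF4 and its bZIP partners that passed were mostly higher in knockdown cells. Of 15, 8 were higher and 1 lower with knockdown and vehicle, and 6 were higher and 3 lower with TGFb, with list medians of 0.23 and 0.01. Herpud1, which acts in the degradation of endoplasmic reticulum proteins, was 2.04-fold higher with vehicle (log2 change 1.03, SE 0.11, adjusted p = 5.33e-05). Map1lc3b, the autophagosome protein LC3B, was 1.84-fold higher (0.88, SE 0.04, adjusted p = 1.08e-07) and Jdp2, a bZIP partner of ATF3, 1.41-fold higher (0.50, SE 0.08, adjusted p = 0.000613). Gadd45a, a growth arrest gene, was 1.91-fold lower (-0.94, SE 0.10, adjusted p = 4.27e-05). Of 16 chaperones and targets of XBP1 or ATF6, 5 were higher and 1 lower with vehicle, led by Dnajb9 (1.84-fold, log2 change 0.88, SE 0.06, adjusted p = 2e-06), with Manf 1.27-fold and Hspa5, the chaperone BiP, 1.16-fold higher and Edem1 1.17-fold lower. With TGFb 3 were higher and 1 lower.

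Genes of neighbouring stress pathways moved both ways, again where 27.8% of all genes passed with vehicle. Of 11 NRF2 targets of the oxidative stress response, 2 were higher and 3 lower with knockdown and vehicle: Hmox1, heme oxygenase, was 1.18-fold and Nqo1 1.13-fold higher, and G6pdx was 1.21-fold and Txnrd1 1.14-fold lower. Of 10 p53 targets 3 were higher and 3 lower. Btg2, an antiproliferative gene, was 1.88-fold higher (adjusted p = 2.52e-07) and Bbc3, the BH3-only protein PUMA, 1.68-fold higher, while Trp53inp1 was 1.55-fold lower.

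**Figure D5:**
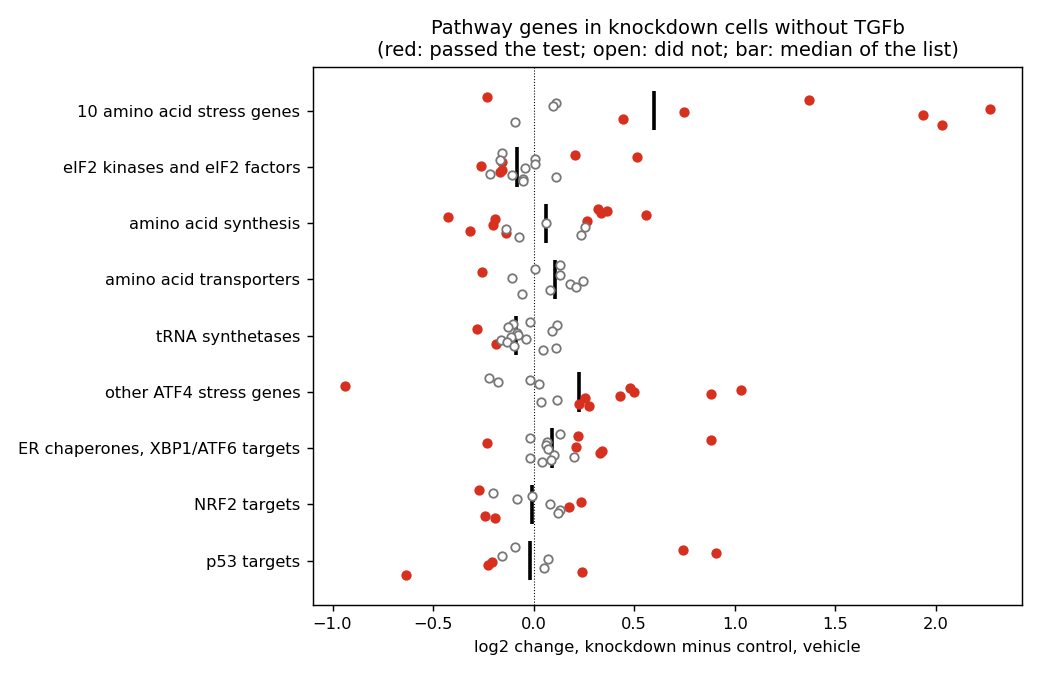
Log2 change in the JMJD3 knockdown line against the control line with vehicle, for the 10 stress genes and 8 lists of pathway genes. Each point is a gene, red points passed at an adjusted p under 0.05, open points did not, and the black bar is the median of the list. The median is 0.60 for the 10 genes, 0.23 for the other stress genes downstream of ATF4 and between -0.09 and 0.11 for the other lists.

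In the same lists, counts for TGFb stand beside 10.1% of all genes that passed in control cells and 9.49% in knockdown cells. Of the 15 other stress genes 5 rose and 0 fell in control cells, and 3 rose and 1 fell in knockdown cells. Jdp2 rose 2.00-fold in control cells (log2 change 1.00, SE 0.08, adjusted p = 4.89e-06) and 1.87-fold in knockdown cells. Cebpb, a partner of ATF4, rose 1.47-fold (adjusted p = 0.005) and 1.36-fold, the latter of which did not pass with the slide as a block (adjusted p = 0.0919). Stc2, a secreted glycoprotein, rose 1.36-fold in control cells, and Nupr1, a chromatin-associated stress protein, 1.39-fold. Nfil3, a bZIP repressor, fell 1.53-fold in knockdown cells (adjusted p = 0.000277). Of the transporters 2 rose in each line, and Slc7a5, the leucine carrier, rose 1.24-fold in both (adjusted p = 0.00101 and 0.00122). Of the synthesis enzymes Aldh1l2 rose 1.30-fold and Cth, which releases cysteine, fell 1.29-fold in control cells, and they moved the same way in knockdown cells, where Cth did not pass with the slide as a block (adjusted p = 0.146). Of the 16 tRNA synthetases and the 16 chaperones and XBP1 or ATF6 targets, 0 passed in either line with limma. At an unadjusted p under 0.05, 0 of the synthetases were seen in either line, and 1 of the chaperone list was higher in each line and 1 lower in knockdown cells. The p53 target Pmaip1, which encodes the BH3-only protein NOXA, rose 2.91-fold in control cells (adjusted p = 9.56e-09) and 2.83-fold in knockdown cells, and Bbc3 fell 1.58-fold in each. The difference of responses passed for 0 of the 109 genes of these 8 lists with limma. Of these genes 6 had an unadjusted p under 0.05, where 5.11% of all genes did.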

How the data were processed

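RNA of 12 samples was hybridised to 1-colour (Cy3) Agilent mouse arrays. Total RNA was amplified from an oligo-dT primer, per the labels' protocols. Probe positions are those of mm9 and the images went through Agilent Feature Extraction 10.7.3.1, per the file headers, and the deposited processed signal is a background-corrected intensity. The authors also deposited log2 values, with a median of 7.93 in each of 12 columns. Every column correlated best with the scanner values of its own array, which settles the match of columns to arrays and the direction. A correlation does not settle the scale. How they corrected the background and centred the values is not given in the sources used here.

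Control spots and outlier spots were left out. Signals were divided by the 75th percentile of their array and put on a log2 scale. A probe was kept if some group had it well above background on all 3 of its arrays (29968), and a gene was its brightest kept probe (24146 genes). Differences were tested by limma 3.58.1 under R 4.3.3 (lmFit, eBayes with a trend), in 1 fit over 12 arrays with 8 residual and 3.11 prior degrees of freedom, two-sided, with Benjamini-Hochberg adjustment over all genes and a threshold of 0.05, in 5 comparisons. The script was tested on simulated data.

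The members and lists were chosen with earlier results of these data known. All 10 members are named. Of each pathway list up to 4 genes per comparison were eligible, those with the smallest adjusted p whose arrays did not overlap, and of the genes most like Chac1 and Asns 5 each. Symbols came from the files, updated through a RefSeq table (GRCm38.p6) for 26055 of 39429 probes, which renamed 0 member probes. Exon and UTR positions of probes are not used here.

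The arrays lay on 4 slides scanned on 1 day: slide 1 held vehicle arrays of both lines, slide 3 all 4 groups, slide 2 lacked knockdown cells with TGFb and slide 4 held TGFb arrays only. Arrays of different groups on a slide deviated together from their group means (12 of 12 correlations positive, 0.18 to 0.58).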

Additional observations from a re-analysis of the deposited data

How the results depend on the processing

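There were 25 alternatives. They were normexp, other scalings, the dim-probe filter, the choice of probe, the prior, array weights and blocks for slide or replicate number. They also covered fits of fewer groups, the deposited log2 values and 1 array left out at a time. Of 1235 member results 1197 kept their side of the threshold, 26 lost their call, 12 gained 1 and 0 called values reversed. Among the 1197 were 36 uncalled values that changed sign. Chac1, Trib3, Atf3 and Sesn2 kept both knockdown calls, and Slc7a11 and Atf3 their TGFb calls in knockdown cells, under all that were run. Members called with TGFb in control cells numbered 1, but 0 when only the compared groups were fitted and 2 without control replicate 2 with vehicle (0 higher and 1 lower became 1 and 1). With arrays left out this count ran from 1 to 2. The causes were not tested. The count over all genes for TGFb in knockdown cells was 2291, against 1470 with array median scaling and 5319 with array weights. For knockdown with vehicle it was 6721 against 4344 with array median scaling, and with TGFb 6998 against 10631 with array weights. For the difference of responses it was 21, against 7 with array median scaling, 94 with array weights, 45 with the slide as a block, 11 with the replicate block and 4 to 27 with arrays left out. No pairing by replicate number was seen: same-numbered arrays on other slides had deviation correlations of -0.53 to 0.04, over 0.1 in 0 of 14. Deviations were taken from group means of 3 arrays, and arrays of a slide deviated together, so this cannot exclude a pairing. For same-numbered arrays on the same slide, number and slide cannot be told apart. With the replicate block members called numbered 1 and 3 with TGFb, 6 and 7 with knockdown and 0 for the difference, Fgf21 with vehicle being lost (adjusted p = 0.0503). Under the filter for signal above background on all 12 arrays Fgf21 was not in the fit.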
